A study of Mus musculus with 12 samples.

Results

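Ribosome footprints on 36 genes of mitosis were followed in the brain and spinal cord of mouse embryos at embryonic day 14.5, in control embryos and in embryos of the Taiwanese model of spinal muscular atrophy (SMA). The genes were picked by name for their work in cell division, with earlier results of these data known. All 36 were among the 10481 genes of the deposited table. They comprise 6 genes of entry into mitosis, 5 of chromosome structure, 6 of the spindle, 3 of the kinetochore, 5 of the spindle checkpoint and mitotic exit, 4 of the chromosomal passenger complex and 7 of cytokinesis. Control embryos were Smn+/-; SMN2tg/0 and SMA embryos were Smn-/-; SMN2tg/0, so that controls also carry the human SMN2 transgene and hold a single working copy of mouse Smn. The alleles act in every cell from conception, and the targeted gene itself was not analysed here. Each of the 4 groups held 3 libraries, from 3 embryos of each genotype, and whether brain and cord libraries of the same number came from the same embryo was not given in the sources used here. Ribosome profiling sequences the stretches of mRNA that ribosomes shield from nuclease, so a count rises with the amount of an mRNA and with the ribosomes on it. Levels are given as CPM, the count of a gene scaled to a common library size by TMM factors over all 12 libraries. Footprints were not divided by mRNA level here, and in whole tissue fewer dividing cells and fewer footprints in each of them cannot be told apart.

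In mitosis, cyclin B and CDK1 drive the cell into division, condensin compacts the chromosomes, motor proteins build a bipolar spindle, and kinetochores attach the chromosomes to it. The spindle assembly checkpoint holds back the anaphase-promoting complex until every chromosome is attached, after which cyclin B is destroyed, sister chromatids part and the cell is cleaved in cytokinesis. Most of these genes are transcribed late in the cell cycle and shut off in cells that have left it. In the embryonic brain and cord the dividing cells are mainly the radial glia and intermediate progenitors lining the ventricles and the central canal, whereas neurons are postmitotic.

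The periodic transcription of such genes is known to pass through the cell cycle homology element, with the letters TTTGAA, at which the DREAM and MMB-FOXM1 complexes bind, often a short way downstream of CCAAT boxes for the factor NF-Y. RefSeq promoters of build GRCm38.p6, the build of the counts, reaching from 250 bases before to 50 bases after the transcription start, were at hand for 31 of the 36 genes. TTTGAA on either strand stood in 26 of the 31 genes (83.9%), against 17.9% of all 32851 mouse promoters of that length. Within 40 bases of the start, a window chosen after the positions were seen, it began in 24 of the 31 genes (77.4%) and in 4.20% of all promoters. CCAAT on either strand stood in 25 genes (80.6%), against 37.4% of all promoters, and 22 genes held both motifs. Each motif was counted on its own, whether or not it touched the other. Stretches are printed for 6 of the genes whose values are given below, with 120 bases before the start and 30 from it, and for Aurka only the 30 bases around its element, which begins 32 bases after the start. Starts are those of the promoter table and can lie inside the outer bounds of a gene. Capitals mark both motifs on either strand.
Mki67, chr7:135716350-135716499, minus strand: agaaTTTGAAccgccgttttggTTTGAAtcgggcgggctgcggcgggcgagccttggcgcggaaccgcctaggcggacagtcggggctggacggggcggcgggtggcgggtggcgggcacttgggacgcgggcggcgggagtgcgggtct
Top2a, chr11:99024160-99024309, minus strand: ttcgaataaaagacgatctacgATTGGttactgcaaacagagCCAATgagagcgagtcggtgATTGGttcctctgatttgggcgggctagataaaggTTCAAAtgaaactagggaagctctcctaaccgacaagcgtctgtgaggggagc
Cdk1, chr10:69352883-69353032, minus strand: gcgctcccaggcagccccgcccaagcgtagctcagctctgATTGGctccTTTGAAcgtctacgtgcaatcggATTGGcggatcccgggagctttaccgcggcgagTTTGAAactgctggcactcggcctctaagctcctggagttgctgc
Aurka, chr2:172370521-172370550, minus strand: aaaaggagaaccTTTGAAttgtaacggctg
Kif11, chr19:37376262-37376411, plus strand: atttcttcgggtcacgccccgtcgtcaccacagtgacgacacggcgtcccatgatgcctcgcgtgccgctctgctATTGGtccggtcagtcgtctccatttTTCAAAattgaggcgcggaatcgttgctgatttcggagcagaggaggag
Kif23, chr9:61946770-61946919, minus strand: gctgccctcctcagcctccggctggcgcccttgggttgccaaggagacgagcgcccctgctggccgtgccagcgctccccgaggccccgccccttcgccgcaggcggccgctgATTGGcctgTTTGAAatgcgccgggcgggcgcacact

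**Figure D1:**
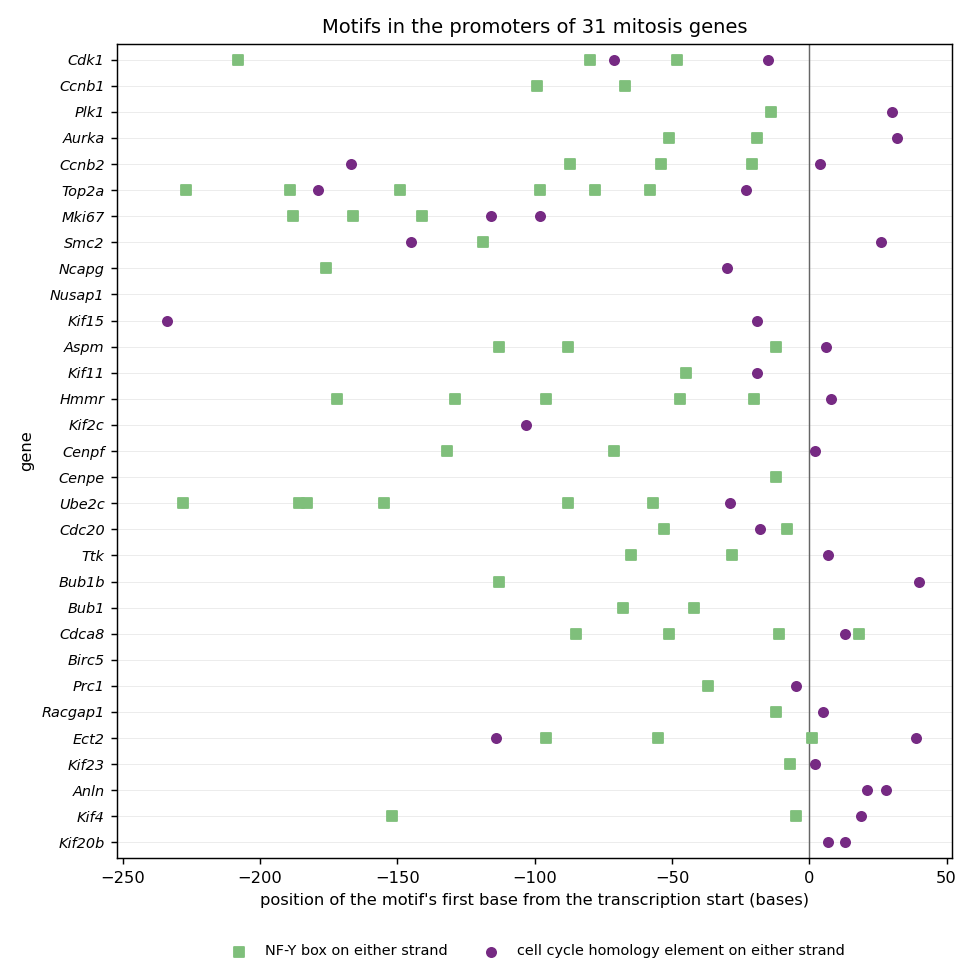
Position of the cell cycle homology element (circles) and of the NF-Y box (squares) along the promoters of 31 mitosis genes, in bases from the transcription start at 0, with 1 row for each gene. Most circles lie near the start, with squares upstream of them, and Nusap1 and Birc5 show neither motif.

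One library stands apart and is given before the comparisons. In control spinal cord library 1, each of the 36 genes was higher than in the other 5 spinal cord libraries. Its 36 genes summed to 2097 CPM, against 577 to 867 in the other 5 and 2917 to 3247 in control brain. Relative to the mean of control spinal cord libraries 2 and 3, the median gene was 2.81-fold higher in library 1, with Mki67 the farthest at 7.13-fold and Racgap1 the nearest at 1.45-fold. Of all 10199 genes with a mean of at least 1 CPM, 1.70% lay at or above that median. The same library held forebrain genes. The 5 brain markers Lhx2, Fezf2, Otx2, Nr2e1 and Nkx2-1 summed to 117 CPM in library 1, against 13.6 to 50.6 in the other spinal cord libraries, and each of the 5 was higher there than the mean of control libraries 2 and 3. Its 8 Hox genes, which mark the cord, summed to 389 CPM, the lowest of the 6 cord libraries, whose other 5 held 425 to 688. In brain the Hox genes summed to 2.19 to 4.88 CPM in controls and 3.83 to 5.58 in SMA, and the brain markers to 394 to 419 and 371 to 431 CPM, so each tissue held the markers of its label. SMA spinal cord library 1 had the highest sum of 22 liver and yolk sac genes, 1757 CPM, against 175 to 696 in control cord. Apart from control library 1, it was also the cord library with the highest sums of brain markers, 50.6 CPM, and mitosis genes, 867 CPM. The part of these markers in the results was not tested, and the main results that use control spinal cord library 1 are given with and without it. Library totals ran from 3683842 to 12793955 counts, and the 36 genes held 13 to 2616 counts each.

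**Figure D2:**
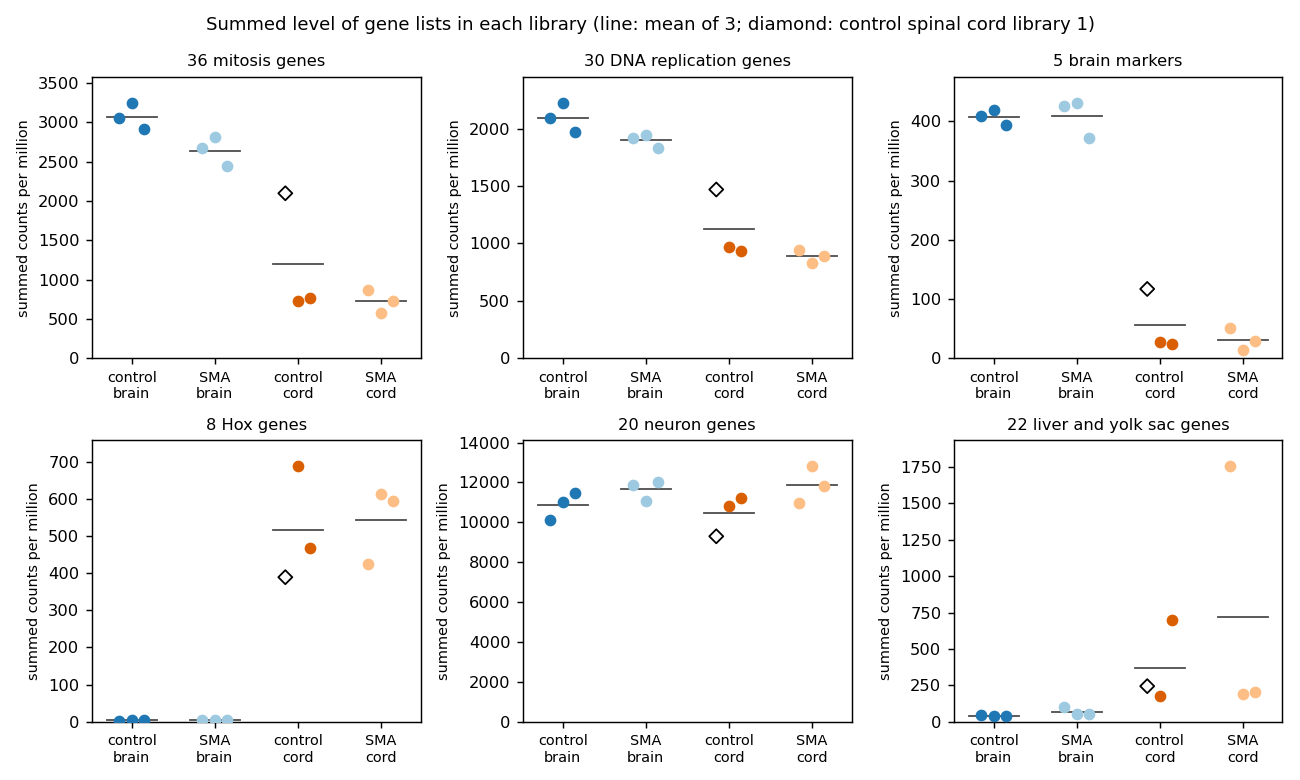
Summed CPM of 6 gene lists in each of the 12 libraries, with 1 panel for each list, the 4 groups on the x axis and a line at the mean of 3 libraries. Control spinal cord library 1 (diamond) is above the other cord libraries for mitosis genes, DNA replication genes and brain markers, and is the lowest cord library for Hox genes and neuron genes.

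Levels between genes are set here per kilobase of the length given in the table, in control brain (mean ± SD, n = 3). Tpx2, which activates Aurora A and starts microtubules on the spindle, led at 62.0 ± 3.78 CPM per kb, above the next gene by more than their spread. Smc4, a condensin core subunit, had 39.0 ± 2.88, followed by Cdc20, Prc1 and Ube2c at 36.8 ± 6.86, 36.3 ± 2.18 and 33.5 ± 1.76 CPM per kb, and each of these 4 was within the spread of the gene next to it, while Smc4 and Ube2c were farther apart than their summed SD. At the other end, Anln, Hmmr and Cenpe had 3.49 ± 0.801, 3.02 ± 0.478 and 2.70 ± 0.332 CPM per kb. The length is the union of a gene's exons, untranslated ends included, where few footprints lie, so the order between genes is approximate.

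**Figure D3:**
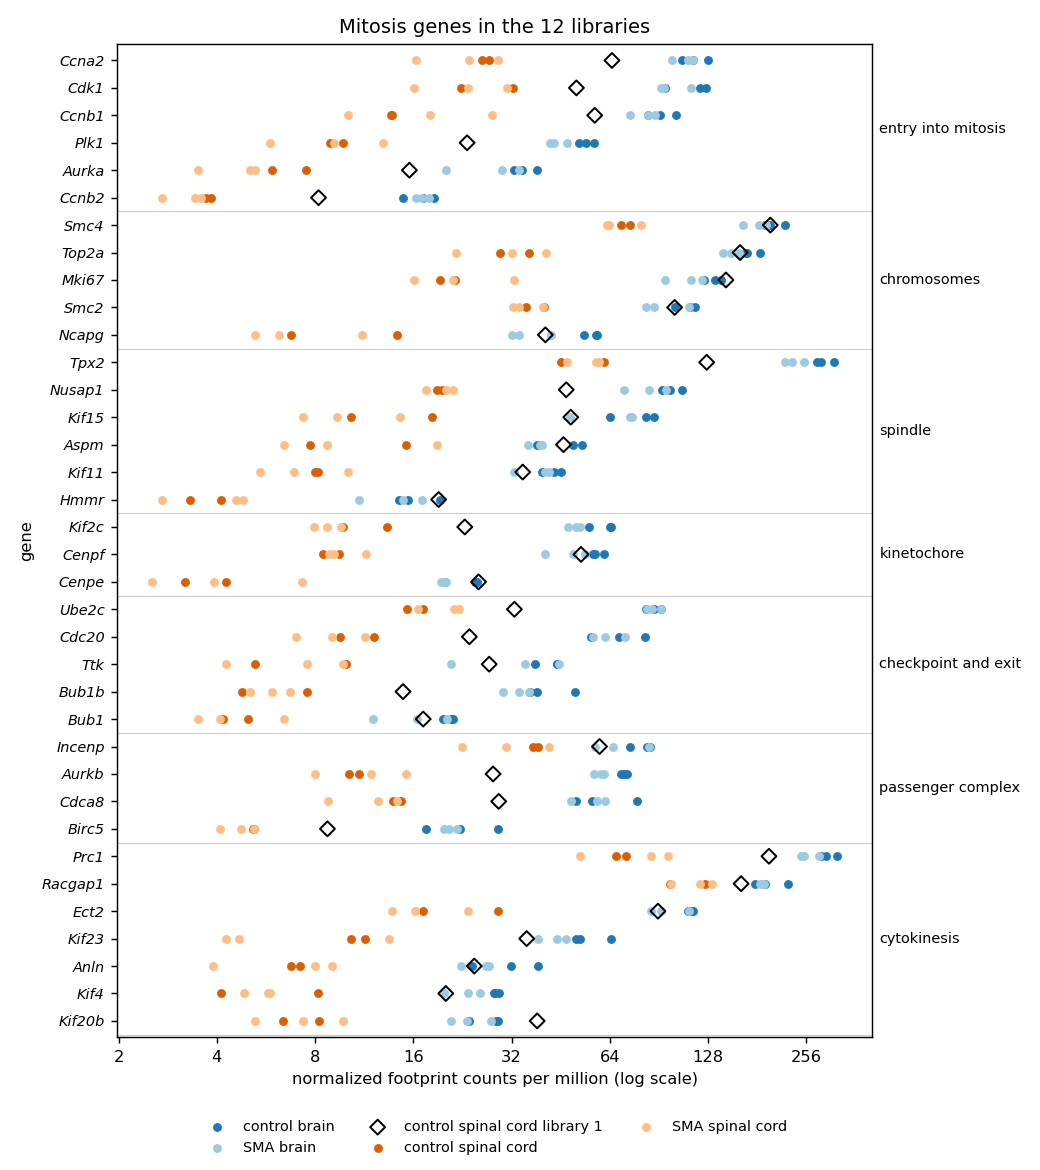
CPM of the 36 mitosis genes (rows, ordered by role) in each of the 12 libraries, on a log2-spaced x axis, with 1 point for each library and colours for the 4 groups. The 6 brain libraries lie to the right of 5 of the 6 spinal cord libraries for every gene, and control spinal cord library 1 (diamond) lies between them, among the brain libraries or, for Mki67, Cenpe and Kif20b, above them.

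Brain held more footprints on the mitosis genes than spinal cord in both genotypes. In SMA embryos all 36 were higher in brain, with a median log2 fold change of 2.16 (4.46-fold) and a range of 0.67 to 2.77, while the median of all 10481 genes was -0.03. Among all genes 17.2% were called higher and 19.5% lower in brain at an adjusted p below 0.05 (edgeR quasi-likelihood test, Benjamini-Hochberg over all genes), and 36 of 36 mitosis genes were called higher, with adjusted p between 1.8e-05 and 0.00703. All 3 brain libraries lay above all 3 spinal cord libraries for 36 of 36 genes, which held for 25.8% of all genes. In control embryos the 36 were again all higher in brain, by a median of 1.48, and 22 of 36 were called, against 18.1% of all genes called higher and 20.4% lower. Without control spinal cord library 1 the control median was 2.34 (5.08-fold) and 36 of 36 were called, against 17.5% of all genes higher and 19.2% lower. With all 6 control libraries, 29 genes did not overlap between the tissues and were higher in brain, against 27.3% of all genes, while 26.7% of all genes were lower without overlap. Without control cord library 1 this was so for 36 of 36 genes and 32.1% of all genes. Setting the 6 brain libraries beside the 5 cord libraries other than control library 1, the lowest brain value exceeded the highest cord value for 36 of 36 genes, by 1.36-fold to 4.63-fold. The library left out was the highest cord library for each of the 36 genes. The share of all genes was not computed for this setting. Control library 1 reached at least the lowest brain value for 18 genes. The control and SMA comparisons use different libraries, while each shares its libraries with the comparisons of genotype below.

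**Figure D4:**
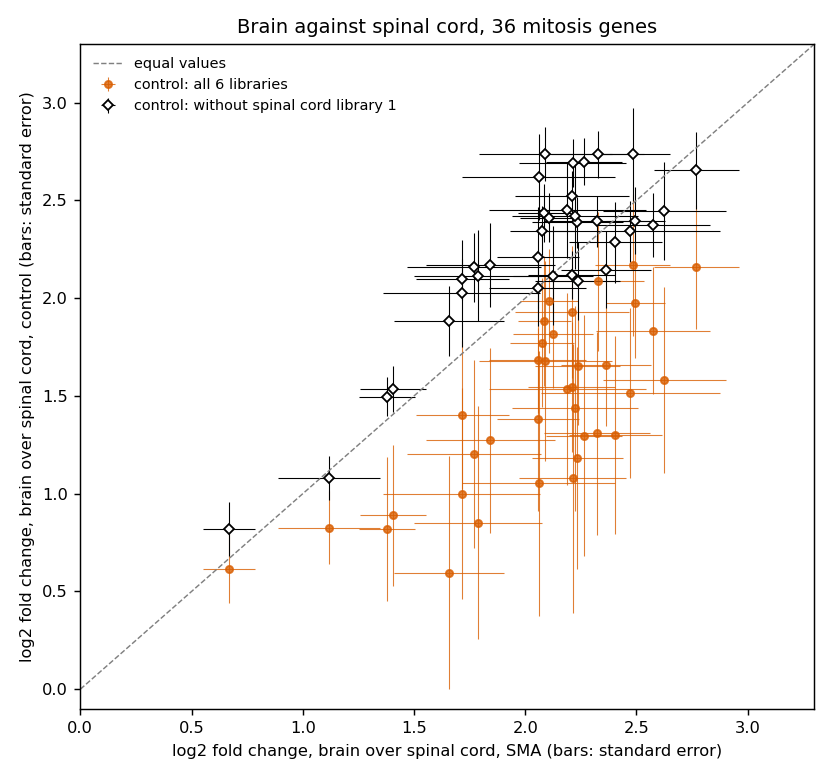
Log2 fold change of brain over spinal cord for the 36 mitosis genes, SMA embryos on the x axis and control embryos on the y axis, with standard errors as bars and a dashed line at equal values. With all 6 control libraries (filled circles) every gene lies below the line, and without control spinal cord library 1 (open diamonds) 24 of the 36 lie above it.

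Entry into mitosis was represented by Cdk1 (ENSMUSG00000019942, chr10:69335146-69352912), the mitotic kinase, its cyclins Ccnb1, Ccnb2 and Ccna2, and the kinases Aurka and Plk1, which mature the centrosomes and help to switch CDK1 on. Cdk1 had 121, 126 and 94.7 CPM in control brain, 92.1, 113 and 94.0 in SMA brain, 50.5, 22.3 and 32.3 in control spinal cord and 30.97, 16.1 and 23.6 in SMA spinal cord. Every brain library lay above every cord library, control cord library 1 included. For Ccnb1 the libraries held 91.1, 102 and 83.7 CPM in control brain, 88.3, 83.5 and 73.6 in SMA brain, 57.5, 13.8 and 13.6 in control cord and 27.9, 10.1 and 18.003 in SMA cord. Control brain held 34.4, 38.2 and 32.4 CPM of Aurka and SMA brain 33.6, 29.9 and 20.1, whereas control cord held 15.6, 5.91 and 7.49 and SMA cord 5.06, 3.50 and 5.24. For both, brain stood above the cord throughout, and control library 1 was the highest of the cord. Brain over cord in SMA, Cdk1 was higher by 2.06 ± 0.22 (log2 fold change ± SE, adjusted p = 3.1e-04), Ccnb1 by 2.09 ± 0.30 (adjusted p = 0.00135) and Aurka by 2.57 ± 0.26 (adjusted p = 2.3e-04). The 6 genes spanned 2.06 to 2.57 in SMA and, without control library 1, 2.05 to 2.74 in control. All 6 were called in SMA and in control with or without that library. In sum the group held 348 to 470.3 CPM over the 6 brain libraries, 54.6 to 109.6 over the 5 cord libraries and 220.2 in control cord library 1.

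The chromosome group held Mki67 (ENSMUSG00000031004, chr7:135689784-135716450), which coats mitotic chromosomes and is the common marker of proliferation, Top2a, the topoisomerase that untangles sister chromatids, and the condensin subunits Ncapg, Smc2 and Smc4. Mki67 had 124, 135 and 140.0 CPM in control brain, 122, 113 and 94.5 in SMA brain, 145.2, 19.3 and 21.4 in control spinal cord and 32.4, 16.1 and 21.1 in SMA spinal cord. Control cord library 1 thus lay above all 6 brain libraries, and the other 5 cord libraries far below them. For Top2a the libraries held 167, 185 and 169 CPM in control brain, 150.1, 159 and 143 in SMA brain, 160.4, 29.5 and 36.3 in control cord and 40.7, 21.6 and 32.1 in SMA cord. Control brain held 53.3, 58.6 and 58.1 CPM of Ncapg and SMA brain 32.0, 42.3 and 33.7, whereas control cord held 40.6, 6.75 and 14.2 and SMA cord 11.1, 5.24 and 6.22. In both, control cord library 1 fell among the brain libraries. The log2 fold changes of brain over cord in SMA were 2.21 ± 0.24 for Mki67 (adjusted p = 3.3e-04), 2.23 ± 0.20 for Top2a (adjusted p = 1.6e-04) and 2.22 ± 0.28 for Ncapg (adjusted p = 7.4e-04). In control, 0 of the 5 genes of the group were called with all 6 libraries (edgeR, 2 at an unadjusted p below 0.05), and 5 of 5 without library 1, when Mki67 was higher in brain by 2.69 ± 0.12 (adjusted p = 1.6e-05) in place of 1.08 ± 0.69. The 5 genes summed to 518 to 693 CPM over the 6 brain libraries, 138 to 204 over the 5 cord libraries and 646 in control cord library 1. Smc2 and Smc4, which also serve the condensin of interphase cells, were at the low end of the group at 1.41 and 1.38 in SMA.

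The spindle group comprised the kinesins Kif11 and Kif15, which push the poles apart, Tpx2, Nusap1 and Hmmr, which bind spindle microtubules, and Aspm, which focuses the poles and sets the size of the cerebral cortex. Tpx2 had 284, 310.2 and 277 CPM in control brain, 251, 232 and 219 in SMA brain, 127, 61.3 and 45.2 in control spinal cord and 59.1, 57.9 and 47.3 in SMA spinal cord. For Kif11 the libraries held 43.2, 45.4 and 39.5 CPM in control brain, 40.5, 41.7 and 32.6 in SMA brain, 34.6, 7.97 and 8.15 in control cord and 10.1, 5.44 and 6.87 in SMA cord. Control brain held 82.6, 87.6 and 64.2 CPM of Kif15 and SMA brain 73.8, 75.0 and 48.2, whereas control cord held 48.6, 10.3 and 18.2 and SMA cord 14.6, 9.32 and 7.37. Brain libraries stood above the cord libraries other than control library 1 in all 3. Control cord library 1 reached the lowest brain library for Kif11 and Kif15 but not for Tpx2. Aspm had 49.3, 52.5 and 38.3 CPM in control brain, 39.1, 39.7 and 35.97 in SMA brain, 46.1, 7.69 and 15.2 in control spinal cord and 18.9, 6.41 and 8.67 in SMA spinal cord. Here control cord library 1 was higher than 4 of the brain libraries. In SMA the brain exceeded the cord by 2.09 ± 0.12 for Tpx2 (adjusted p = 2.3e-05), 2.63 ± 0.28 for Kif15 (adjusted p = 2.9e-04), 2.32 ± 0.24 for Kif11 (adjusted p = 2.5e-04) and 1.71 ± 0.35 for Aspm (adjusted p = 0.00700) on the log2 scale. Over the 6 genes the sum was 418 to 621 CPM over the 6 brain libraries, 94.9 to 129 over the 5 cord libraries and 322 in control cord library 1. Aspm had the widest error of the 4, with SMA cord library 1 at 18.9 CPM above the other 2 SMA cord libraries.

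At the kinetochore, Kif2c (ENSMUSG00000028678, chr4:117159633-117182624) is a microtubule depolymerase that corrects faulty attachments, Cenpe a motor that carries chromosomes to the equator, and Cenpf a large scaffold of the outer plate. Kif2c had 55.2, 64.7 and 64.2 CPM in control brain, 51.9, 50.5 and 47.7 in SMA brain, 23.0, 9.75 and 13.3 in control spinal cord and 9.62, 7.96 and 8.67 in SMA spinal cord. The 2 tissues were well apart, and control cord library 1 remained under every brain library. Kif2c had the smallest p of the 36 in SMA, with brain higher by 2.496 ± 0.13 (adjusted p = 1.8e-05). Cenpf and Cenpe were higher in SMA brain by 2.26 ± 0.17 and 2.06 ± 0.34, and in control by 1.30 and 1.05 with all libraries and 2.70 and 2.62 without library 1. Summed, the 3 genes had 108 to 147 CPM over the 6 brain libraries, 19.6 to 28.4 over the 5 cord libraries and 101 in control cord library 1.

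Among genes of the checkpoint and of mitotic exit, Cdc20 activates the anaphase-promoting complex, Ube2c is its ubiquitin-conjugating enzyme, and Bub1, Bub1b and Ttk are checkpoint kinases or kinase-like proteins that hold CDC20 in check. Cdc20 had 68.5, 81.7 and 56.1 CPM in control brain, 62.1, 71.4 and 56.9 in SMA brain, 23.8, 9.57 and 12.1 in control spinal cord and 11.4, 6.99 and 9.002 in SMA spinal cord. For Ube2c the libraries held 82.5, 91.6 and 87.3 CPM in control brain, 83.1, 91.8 and 85.9 in SMA brain, 32.6, 15.3 and 17.2 in control cord and 21.3, 16.5 and 22.1 in SMA cord. Both genes were apart between the tissues in all 12 libraries. Cdc20 showed the highest log2 fold change of the 36 genes in SMA, 2.77 ± 0.19 (adjusted p = 4.0e-05), and Ube2c stood at 2.11 ± 0.13 (adjusted p = 2.9e-05). The 5 genes together held 210.3 to 281 CPM over the 6 brain libraries, 36.3 to 54.8 over the 5 cord libraries and 116 in control cord library 1. Ube2c had the smallest p of the 36 in control with all 6 libraries, at 1.99 ± 0.27 (adjusted p = 0.00123), and was at 2.41 ± 0.13 without library 1 (adjusted p = 2.5e-05). The chromosomal passenger complex, which senses tension at the centromere, has Aurkb as its kinase and Incenp, Birc5 and Cdca8 as its other subunits. Control brain held 69.1, 70.6 and 72.5 CPM of Aurkb and SMA brain 57.1, 60.1 and 61.4, whereas control cord held 28.1, 10.1 and 10.9 and SMA cord 15.2, 11.8 and 8.02. Aurkb was higher in brain by 2.33 ± 0.21 in SMA (adjusted p = 1.5e-04), and Incenp, at 1.12 ± 0.23, was well under the other 3 subunits, which lay between 2.13 and 2.33. The complex summed to 184 to 262 CPM over the 6 brain libraries, 47.2 to 68.7 over the 5 cord libraries and 126 in control cord library 1.

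Cytokinesis genes included Prc1, which bundles the central spindle, Kif23 and Racgap1, which form the centralspindlin complex, Ect2, which it recruits to switch on RhoA, Anln of the contractile ring, and the kinesins Kif4 and Kif20b. Kif23 had 50.3, 64.5 and 51.96 CPM in control brain, 47.0, 38.6 and 44.1 in SMA brain, 35.59, 11.3 and 10.3 in control spinal cord and 13.4, 4.66 and 4.26 in SMA spinal cord. Brain libraries lay above all cord libraries, and SMA cord libraries 2 and 3 were the lowest of the 12. Kif23 was higher in brain by 2.47 ± 0.40 in SMA (adjusted p = 0.00237) and by 2.34 ± 0.16 in control without library 1 (adjusted p = 6.5e-05). Its partner Racgap1 had the lowest tissue difference of the 36 genes, 0.67 ± 0.12 in SMA (adjusted p = 0.00350), with 187 ± 2.64 CPM in SMA brain and 117 ± 17.0 CPM in SMA cord (mean ± SD, n = 3). The 7 genes spanned 0.67 to 2.47 in SMA and summed to 634 to 773 CPM over the 6 brain libraries, 183 to 278 over the 5 cord libraries and 567 in control cord library 1. Racgap1 also followed the others least closely across the 12 libraries, with a Pearson correlation of 0.93 between its log2 CPM and the mean of the other 35, against a median of 0.98 over the 36 genes. Without control cord library 1 these values were 0.931 and 0.986. The libraries are in 2 tissues, so these correlations mainly describe the distance between tissues.

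In SMA brain, mitosis genes were slightly lower than in control brain. Of the 36, 34 had a log2 fold change below 0, with a median of -0.21 (0.865-fold) and a range of -0.62 to 0.03, while 49.1% of all genes were below 0. Their summed level was 3050.0, 3247 and 2917 CPM in control brain and 2668, 2808 and 2443 CPM in SMA brain, so the 3 SMA libraries lay under the 3 controls. Taking a gene as called where its unadjusted p was below 0.05 and its log2 fold change 0.3 or more in size, 2.57% of all genes were called lower in SMA brain and 1.19% higher, and 2 of the 36, Ncapg and Kif23, were called lower. Both were among 12 genes that were lower in every SMA library than in any control library, against 7.18% of all genes, while 0 of the 36 and 4.08% of all genes were higher in this way. After adjustment over all genes 0 of the 36 passed 0.05 by edgeR, with the smallest adjusted p at 0.902, and 6 had an unadjusted p below 0.05. The share of all genes at that unadjusted p alone is not given here, so the 6 are not set against it.

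Ncapg (ENSMUSG00000015880, chr5:45669891-45700547), a subunit of condensin I that loads on chromosomes once the nuclear envelope has opened, had the largest log2 fold change in size. It had 56.7 ± 2.94 CPM in control and 36.01 ± 5.52 CPM in SMA brain (mean ± SD, n = 3), with no overlap of the libraries listed above, a log2 fold change of -0.62 ± 0.14 and an unadjusted p of 5.4e-04 (edgeR, adjusted p = 0.902). The core condensin subunits Smc2 and Smc4 stood at -0.21 ± 0.12 and -0.16 ± 0.10, and neither was called. Kif23 fell from 55.6 ± 7.76 to 43.2 ± 4.28 CPM, a log2 fold change of -0.35 ± 0.14 (edgeR, unadjusted p = 0.0270, adjusted p = 0.902). Tpx2 had the second smallest p, 0.00760, with -0.29 ± 0.09 just short of the fold threshold, and Plk1, Kif2c and Mki67 were at -0.27, -0.27 and -0.25 with unadjusted p of 0.0393, 0.0424 and 0.0461. The smallest changes were those of Ube2c at 0.02 ± 0.10 and Ccnb2 at 0.03 ± 0.16. By role, the medians ran from -0.30 for the checkpoint and exit genes to -0.16 for the passenger complex. Ncapg was called with each of the 6 libraries left out in turn, and Kif23 was not without control library 2 or SMA library 2. The count of genes called depended on single libraries. It was 7, 1 and 6 without control brain library 1, 2 or 3, in fits that called 2.33%, 2.92% and 2.86% of all genes lower. Without SMA brain library 1, 2 or 3 it was 7, 8 and 2, against 2.52%, 3.62% and 2.49% of all genes. In a fit over all 12 libraries it was 0, against 2.18% of all genes.

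**Figure D5:**
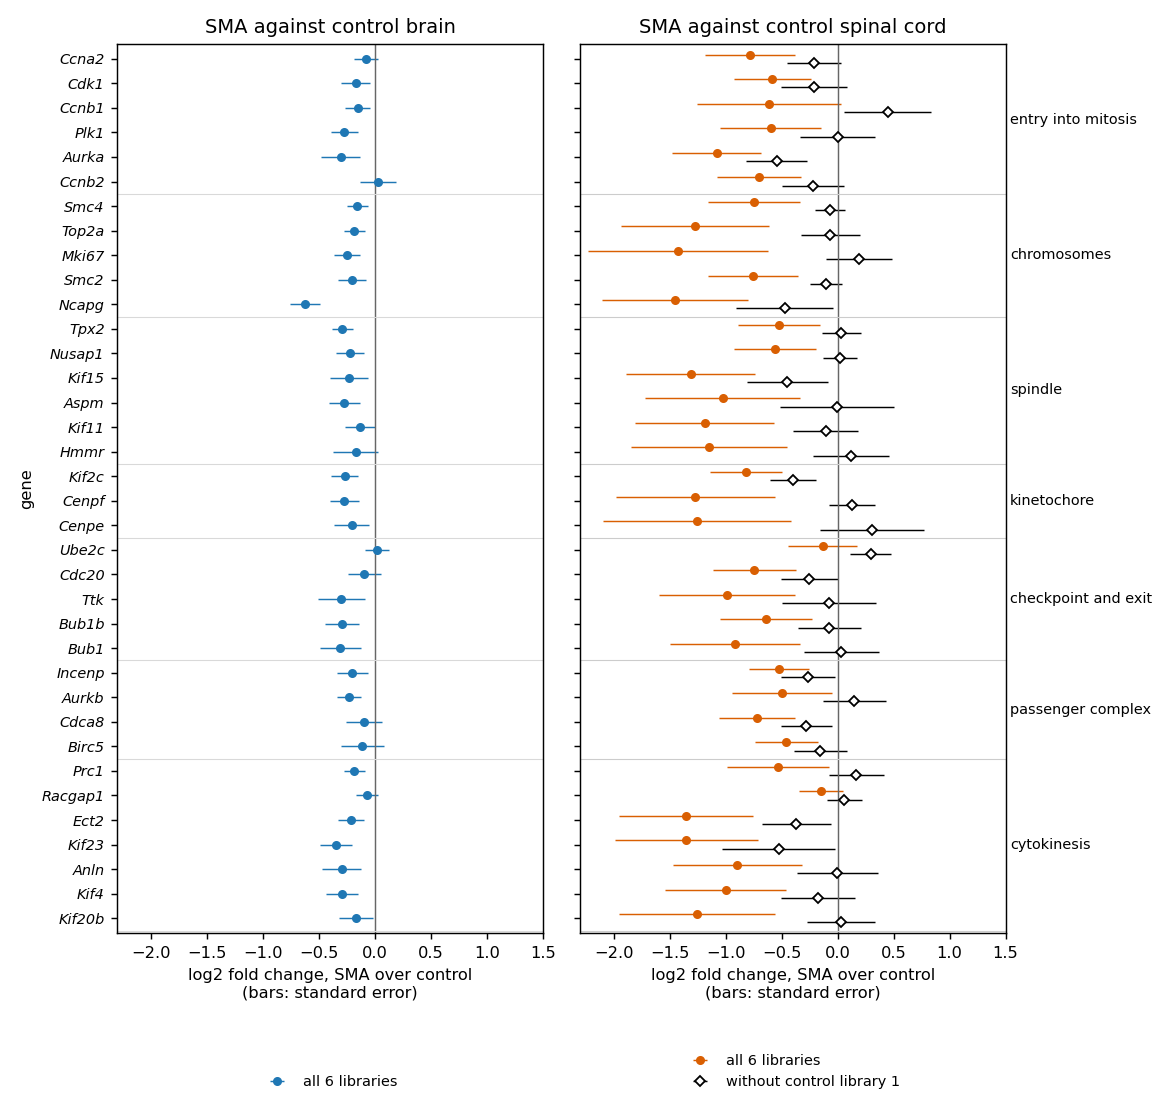
Log2 fold change of SMA over control (x axis, bars are standard errors) for each of the 36 mitosis genes (rows, ordered by role) in brain (left) and spinal cord (right). In brain 34 genes lie below 0 and none below -1, and in spinal cord the shift below 0 seen with all 6 libraries (filled circles) is near 0 for most genes without control library 1 (open diamonds).

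In spinal cord the comparison rested on 1 control library. With all 6 libraries, 36 of 36 genes were lower in SMA cord, with a median log2 fold change of -0.80 (0.573-fold). Without control library 1, 23 were lower and 13 higher, with a median of -0.07 and 28 of 36 within 0.3 of 0. At the same thresholds 2.14% of all genes were called lower in SMA cord with all libraries, and 2 of the 36 were, Aurka and Kif2c. Without control library 1, 1% of all genes were called lower and 1.2% higher, 0 of the 36 were called, and 0 of the 36 had an unadjusted p below 0.05 by edgeR. With all 6 libraries, 3 genes were lower in each SMA library than in each control library, against 6.29% of all genes (8.1% were higher), and these were Aurka, Kif2c and Ccnb2. After adjustment over all genes 0 of the 36 passed 0.05 by edgeR, and 2 did at an unadjusted p below 0.05, for which the share of all genes is not given here. With all 6 libraries DESeq2 called 10 of the 36 lower by the same rule, and 2.17% of all genes. The count called lower by edgeR was 3, 0 and 1 without SMA cord library 1, 2 or 3, in fits that called 5%, 1.52% and 1.63% of all genes lower. Without control library 2 or 3 it was 18 and 7, against 2.75% and 3.34% of all genes.

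Aurka (ENSMUSG00000027496, chr2:172356190-172370886) was at 9.65 ± 5.18 CPM in control cord and 4.60 ± 0.958 CPM in SMA cord, a log2 fold change of -1.08 ± 0.40 (edgeR, unadjusted p = 0.0302, adjusted p = 0.684). Without control library 1 it stood at -0.54 ± 0.27 (edgeR, unadjusted p = 0.0883). Control libraries 2 and 3 then held 5.91 and 7.49 CPM, narrowly above the 3.50 to 5.24 CPM of SMA cord. The share of all genes without such overlap was not computed. Kif2c was at 15.3 ± 6.86 and 8.75 ± 0.833 CPM, with -0.82 ± 0.32 (edgeR, unadjusted p = 0.0374) and, without library 1, -0.40 ± 0.21 (unadjusted p = 0.101). Neither gene was called without SMA cord library 1, 2 or 3. Leaving out control library 1 moved 9 genes by over 1 on the log2 scale, all upward. Mki67 went from -1.43 ± 0.81 to 0.19 ± 0.29 without it, Top2a from -1.27 ± 0.66 to -0.06 ± 0.26, Kif11 from -1.19 ± 0.62 to -0.11 ± 0.29, Cenpf from -1.27 to 0.13, and Ccnb1 from -0.61 ± 0.64 to 0.45 ± 0.39. Ncapg and Kif23, called in brain, stood at -0.47 ± 0.43 and -0.53 ± 0.51 in cord without library 1, and neither was called.

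Whether the genotypes differed by tissue was tested with an interaction term in a fit of the 12 libraries. Among all genes 0.935% had a positive and 1.44% a negative interaction at an unadjusted p below 0.05, and 0 of the 36 mitosis genes passed by edgeR or by DESeq2. The nearest was Ccnb2 at 0.70 ± 0.40 (edgeR quasi-likelihood test, adjusted p = 1.00). All 36 values were positive with all libraries and 24 of 36 negative without control cord library 1, when 0 again passed, against 0.706% and 1.54% of all genes. The count that passed with a positive value was 11 without control cord library 2, 2 without control cord library 3 and 1 without SMA cord library 1, in fits where 1.51%, 1.39% and 2.11% of all genes did. The brain and cord values side by side therefore do not show that the genotypes differ by tissue, nor that they act alike.

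Other genes of the cell cycle were read from lists that hold the genes with a name at hand. Of 35 other mitosis genes, 23 were called higher and 1 lower in brain than in cord of SMA embryos (median 1.19), against 17.2% and 19.5% of all genes. Among them were Kif20a, a kinesin of cytokinesis, at 2.41 ± 0.25, Nde1, a dynein regulator of progenitor division, at 2.16 ± 0.15, and Pttg1, the securin, at 1.45 ± 0.10 (log2 fold change ± SE). The gene called lower was Cdc27, a subunit of the anaphase-promoting complex, at -0.48 ± 0.10. Of 30 DNA replication genes 24 were called higher and 0 lower in SMA brain against cord (median 1.07), among them Uhrf1 at 2.51 ± 0.13 and the licensing helicase subunit Mcm5 at 1.81 ± 0.13. In SMA against control brain, 25 of the 30 were below 0 (median -0.13), and Cdc6 and Gmnn, both of replication licensing, were called lower at -0.37 ± 0.17 and -0.36 ± 0.13. Of the list of 35, which also holds Mtfr2, a gene named for mitochondrial fission, 28 were below 0 (median -0.05). Ska1, Mtfr2 and Shcbp1 were called lower at -1.20 ± 0.31, -1.11 ± 0.46 and -0.69 ± 0.26. In SMA against control brain 2.57% of all genes were called lower. Levels were low for Mtfr2, at 2.63, 5.25 and 2.20 CPM in control and 1.64, 1.67 and 1.12 in SMA brain. Ska1 held 7.77, 8.83 and 8.78 against 2.46, 2.78 and 5.86 CPM. Shcbp1 held 27.2, 21.0 and 24.6 against 19.1, 18.2 and 6.97 CPM. In SMA against control cord with all 6 libraries, 31 of the 35 and 28 of the 30 were below 0, and without control library 1 this was 18 and 18. The genes called lower in cord with all 6 libraries were Nde1, Pttg1, Gmnn and Atad2, a chromatin ATPase, at -0.59 ± 0.16, -0.54 ± 0.15, -0.76 ± 0.24 and -1.96 ± 0.82. Without control library 1 they stood at -0.54 ± 0.19, -0.37 ± 0.12, -0.56 ± 0.23 and -0.36 ± 0.28, and Nde1, Pttg1 and Gmnn were called while Atad2 was not. These fits called 2.14% of all genes lower with all 6 libraries and 1% without control library 1.

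Cell type markers were measured in the same libraries. Summed over 15 genes of neural progenitors, such as Nes, Sox9 and Fabp7, control brain held 1531 to 1659.7 CPM and SMA brain 1473 to 1576, while control cord held 1195 to 1237 and SMA cord 1240.5 to 1306. In SMA brain 10 of the 15 were below control (median -0.07), and Nes, the intermediate filament of radial glia, Dll3 and Ptch1 were called lower at -0.33 ± 0.11, -0.33 ± 0.14 and -0.46 ± 0.15. The 20 neuron genes summed to 10132 to 11485 CPM in control and 11057 to 12035 in SMA brain, with 14 of 20 above 0 and 0 called in either direction (edgeR, 1 at an unadjusted p below 0.05, median 0.10). Genes of meninges, mesenchyme and vessels summed to 1203 to 1208 and 1057 to 1147 CPM in control and SMA brain, with 4 of 16 called lower. Erythroid and blood genes summed to 222 to 270.3 and 227 to 242 CPM, with 1 of 22 called lower. Among all genes 2.57% were called lower. Liver and yolk sac genes were scarce in brain, at 38.2 to 43.0 and 51.8 to 101 CPM in sum, with 6 of 22 called higher in SMA, against 1.19% of all genes. SMA brain libraries 1, 2 and 3 held 101, 51.8 and 55.2 CPM in sum, with Apob at 33.6, 0.928 and 0.558. Between the tissues in SMA, 9 of 15 progenitor genes were called higher and 3 lower in brain, and 3 of 20 neuron genes higher and 8 lower. Among all genes these shares were 17.2% and 19.5%. Of the progenitor genes, Lhx2 and Nr2e1 also stand in the list of brain markers. The part of cell make-up in the mitosis gene results was not tested.

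The pattern over the 12 libraries was shared by further genes. Among 1875 named genes outside the 36 with a mean of at least 5 CPM, the log2 CPM of Kif20a and Pbk, 2 mitotic genes, followed the mean of the 36 most closely, with Pearson correlations of 0.994 and 0.992. Gtse1, Uhrf1, Mcm5, Nr2e1, Ro60, Spc25 and Mcm2 were among those that came next, down to 0.975. Without control cord library 1 the correlations of Kif20a and Pbk were 0.995 and 0.992, and that of Mcm2 0.985. Nr2e1 is a transcription factor of forebrain progenitors and not a cell cycle gene. The points are libraries of 2 tissues with 1 cord library between them, and the values are descriptions.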

How the data were processed

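The deposited counts are raw ribosome footprints per gene, which the authors made by trimming (cutadapt 4.1), removing reads of rRNA and tRNA, aligning with STAR 2.5.3a to GRCm38.p6 and leaving out genes of low FPKM; the counting tool, and whether the authors' removal of reads at the same position came before counting, were not given in the sources used here. The deposited columns name the controls WT, and the genotypes printed are those of the labels. The deposited length column was used only to set levels per kilobase and for a length trend.
Counts of 12 libraries were scaled by TMM and tested across all 10481 genes with edgeR 4.0.16 (quasi-likelihood, R 4.3.3) on the 6 libraries of each comparison, and on 12 for the interaction. CPM values use TMM factors over 12 libraries. Genotype calls required an unadjusted p below 0.05 with a log2 fold change of 0.3 or more in size, interaction calls the p alone, and tissue calls an adjusted p below 0.05 (Benjamini-Hochberg). Standard errors are the log2 fold change over the square root of F. Alternatives were other scalings, filters, fits, DESeq2 1.42.0, trends and left-out libraries. The methods were checked on simulated data.
Whether replicate numbers pair the libraries is not given in the sources used here, and the main fits did not pair them. In the SMA tissue comparison, deviations from the group means correlated at 0.363, 0.118 and 0.145 for numbers 1, 2 and 3. These values do not settle pairing. A fit with the replicate number as a block left the count of calls at 36. Exact permutation of 3 against 3 libraries cannot give a two-sided p below 0.1, so single values were not permuted.
The 36 genes and all lists were chosen with earlier results of these data known. Gene names other than those of the 36 came from a table that covers only part of the genes, so the other lists are not complete. Values of every library are printed for genes called in a genotype comparison, for the 3 genes of smallest p in each comparison of 2 groups, and for Mki67, Top2a, Cdk1, Ccnb1, Aurkb, Kif11, Aspm and Ncapg. Of other lists at most 4 called genes are named, and 1 gene of the brain markers and of the likeness ranking is not reported here.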

Additional observations from a re-analysis of the deposited data

How the results depend on the processing

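Brain over cord in SMA gave 36 genes called under every alternative run, in fits that called 11.2% to 22.1% of all genes higher. With each library left out the median log2 fold change was 2.01 to 2.42. In control the count ran from 15 to 36 and the median from 1.14 to 2.34 with 1 library left out, the top of both without control cord library 1. Those fits called 10.5% to 17.5% of all genes higher. For SMA against control brain the 2 calls became 1 with the trend on gene length taken out (chosen after seeing the data), against 2.38% of all genes called lower. In 1 fit over all 12 libraries the count was 0, against 2.18%. It was 1 at a fold threshold of 0.5 (log2) and 6 with no fold threshold, where shares of all genes are not given here. With 1 library left out it was 1 to 8, against 2.33% to 3.62%, with the median between -0.27 and -0.14. For cord the 2 calls became 5 after taking out a trend on counts per base, against 1.56% of all genes called lower. They became 0 with the newer quasi-likelihood fit (chosen after seeing the data), against 2.09%, and 10 with DESeq2, against 2.17%. In 1 fit over all 12 libraries the count was 19, against 2.81%. With 1 library left out it was 0 to 18, against 1% to 5%, with the median between -1.04 and -0.07. Interaction counts ran from 0 to 11 with 1 library left out, in fits where 0.592% to 2.11% of all genes passed with a positive value. The causes were not tested. In the comparisons other than SMA tissues, correlations of deviations ran from -0.114 to -0.017 in brain, -0.487 to 0.696 in cord and -0.029 to 0.095 between control tissues. They do not settle whether the replicate numbers pair the libraries. The replicate block gave 2 calls in brain and 13 in cord, in fits that called 2.61% and 4.23% of all genes lower. Between control tissues it gave 31, against 20.7% of all genes called higher. For the interaction it gave 0, against 1.32% of all genes with a positive and 1.67% with a negative value.

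Without control cord library 1, 13 of the 36 genes turned from lower to higher in SMA cord. Of the 15 genes with values printed for every library, Ube2c in brain, at 0.02, was -0.0028 on library size alone and -0.00051 in 1 fit over all 12 libraries, and -0.0330 to 0.0572 with 1 library left out, and Cdc20 in brain ran from -0.21 to 0.0412. In cord, with 1 library left out, Mki67 ran from -1.85 to 0.19, Ccnb1 from -1.03 to 0.45, Aurkb from -0.75 to 0.15, Tpx2 from -0.80 to 0.0326 and Ube2c from -0.33 to 0.30, each highest without control cord library 1. Over all alternatives in the 4 comparisons of 2 groups, 859 values of these 15 genes kept direction and call, 59 gained a call, 32 lost it and 10 turned direction. The 36 genes had 13 to 2616 counts per library, and replicates differed beyond counting noise in every group.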

Other observations

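In control spinal cord library 1 the excess of mitosis genes went with gene length. Over the 36 genes, the fold of that library over the mean of control cord libraries 2 and 3 ran with exon length at a Spearman rho of 0.629, and over 9198 genes at 0.343. The 17 genes under 5000 bases had a median fold of 2.38, with a range of 1.57 to 4.19, and the 19 longer ones a median of 3.87, with a range of 1.45 to 7.13. Relative to control brain the rho was 0.713 over the 36 and 0.333 over 9198 genes. Genes are not independent replicates, and a single library carries these values. For SMA over control brain the rho was -0.230 over the 36 and -0.219 over 9198 genes. Length and number of dividing cells were not separated, and their part was not tested.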
